A study of Mus musculus with 12 samples.

Results

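Orphan, adhesion and free fatty acid G protein-coupled receptors were described in white adipose tissue (WAT), muscle and liver of mice that lack the ghrelin receptor Ghsr. The receptors were taken by name, as genes whose symbol reads Gpr, Adgr or Ffar followed by its number, on probe sets that carry a single gene symbol. This gave 79 genes on 127 probe sets, of 18193 genes with a single symbol on the array. They comprised 21 adhesion receptors, 2 free fatty acid receptors (Ffar2 and Ffar4) and 56 genes named Gpr. Of the genes that fit the naming rule in the reference gene table, 100 in all, 79 were matched on the array. A total of 47 members had 1 probe set, 32 had several, and 1 probe set that named Gpr146 together with another gene was not used.

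G protein-coupled receptors span the cell membrane and pass signals from outside the cell to G proteins and arrestins. Orphan receptors are those first named from sequence before a ligand was known, and several have since been paired with a lipid, metabolite or peptide. Adhesion receptors carry a long outer part that binds the matrix or neighbouring cells, and free fatty acid receptors sense short or long chain fatty acids. Unacylated ghrelin (UAG) is the ghrelin peptide without its acyl group and does not activate Ghsr in the usual way, and the receptor through which it acts is not agreed. These genes were therefore described as a catalogue of receptors present in each tissue and of those whose level differed after UAG.

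All mice were female Ghsr knockouts on C57bl/6, 12 weeks old, and no array came from a mouse with the receptor. They received saline or 20 nmol/kg UAG by intraperitoneal injection, and gonadal WAT, muscle and liver were collected 6 hours later. Each of the 6 groups of tissue and treatment was measured on 2 arrays, 12 in all. The methods of the study give n = 2 for the treated mice, while the labels do not say which arrays of different tissues share a mouse. The tests treated arrays as separate samples, and p-values measure the spread between these samples, which may be technical, and with 2 arrays a group the precision is low. Values are array intensities in arbitrary units, raised to 30 where they lay below it, which is the threshold given in the methods of the study; a value of 30 therefore means at or below 30. Levels of different probe sets were not set against each other.

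Ghsr itself was at 30 on all 12 arrays, as was ghrelin (Ghrl). Where the Ghsr probe set lies relative to the deleted part is not given in the sources used here, so this does not check the genotype. Arrays of 1 tissue correlated over all probe sets, with r of 0.951 to 0.962 for WAT, 0.938 to 0.951 for muscle and 0.925 to 0.946 for liver. Tissue markers were high where the labels place them: the summed intensity of 4 adipocyte markers was 37628 to 45678 in WAT and 332 to 439 in liver, and that of 4 hepatocyte markers was 47215 to 70178 in liver and 205 to 309 in WAT. The muscle arrays also carried the adipocyte markers, at 22478 to 33438, and 4 brown adipocyte markers at 11135 to 18336. In muscle the largest part of the brown adipocyte sum was Cox8b alone, at 8051 to 10590. Ucp1 was at 1043 to 3713 there and Cidea at 1867 to 4040. Individual arrays stood apart in WAT: saline replicate 2 had the 5 smooth muscle markers at 29743 against 5813 to 6638 on the other WAT arrays. WAT saline replicate 1 had the brown adipocyte markers at 18808 against 1845 to 3822, and 5 skeletal muscle fibre markers at 4485 against 1256 to 2360. The 3 neutrophil markers were at 620 on WAT saline replicate 2 against 103 to 153. On muscle UAG replicate 2 they were at 6082 against 188 to 377. Both WAT saline arrays thus stood apart in some markers, whose part in the WAT differences after UAG was not tested. In whole tissue, fewer cells of a type and less RNA per cell cannot be told apart.

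The promoter sequences below are those of some of the receptors on which the tissue and treatment results turn. No promoter window was available for Adgra2, Adgrd1 and Gpr182. Those shown are Ffar2, Ffar4 and Gpr160, which were higher in WAT, Gpr39 and Adgre4, which were higher in liver, and Gpr1, which differed after UAG. Each is the 250 bases before the annotated start in RefSeq on GRCm38.p6, written 5′ to 3′ on the strand of the gene. Ffar2 has 4 annotated starts and Gpr1 has 2, and the most upstream one is shown for each. Positions are chr7:30823776-30824025 (minus strand) for Ffar2, chr19:38096829-38097078 (plus strand) for Ffar4 and chr3:30855700-30855949 (plus strand) for Gpr160. They are chr1:125676746-125676995 (plus strand) for Gpr39, chr17:55749734-55749983 (plus strand) for Adgre4 and chr1:63214282-63214531 (minus strand) for Gpr1. Capitals mark matches, on either strand, to any of 5 motifs. The TATA box was searched as TATAAA. The element known as the GC box was searched as GGGCGG. The CCAAT box was searched by its name. The half-site bound by nuclear receptors was searched as AGGTCA. The element of the C/EBP type was searched as TTGCNNAA, in which N stands for any base.
Ffar2: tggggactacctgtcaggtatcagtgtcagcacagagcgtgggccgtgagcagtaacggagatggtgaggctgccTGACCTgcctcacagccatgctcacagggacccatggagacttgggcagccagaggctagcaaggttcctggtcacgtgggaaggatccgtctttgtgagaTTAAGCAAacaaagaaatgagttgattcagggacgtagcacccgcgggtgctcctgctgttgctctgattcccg
Ffar4: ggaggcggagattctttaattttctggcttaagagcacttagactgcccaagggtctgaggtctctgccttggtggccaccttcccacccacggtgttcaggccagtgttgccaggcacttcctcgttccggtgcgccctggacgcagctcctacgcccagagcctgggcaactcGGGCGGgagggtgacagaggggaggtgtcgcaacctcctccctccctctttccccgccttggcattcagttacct
Gpr160: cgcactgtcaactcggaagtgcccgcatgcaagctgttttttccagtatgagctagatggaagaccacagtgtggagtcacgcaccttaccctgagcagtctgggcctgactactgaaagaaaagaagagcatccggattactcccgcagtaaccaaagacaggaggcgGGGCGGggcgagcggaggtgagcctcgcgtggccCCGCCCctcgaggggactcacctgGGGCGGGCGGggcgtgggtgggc
Gpr39: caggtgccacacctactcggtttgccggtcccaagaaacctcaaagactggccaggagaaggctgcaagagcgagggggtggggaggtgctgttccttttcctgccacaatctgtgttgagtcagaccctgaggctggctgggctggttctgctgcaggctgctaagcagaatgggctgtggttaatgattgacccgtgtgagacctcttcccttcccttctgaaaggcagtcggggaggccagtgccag
Adgre4: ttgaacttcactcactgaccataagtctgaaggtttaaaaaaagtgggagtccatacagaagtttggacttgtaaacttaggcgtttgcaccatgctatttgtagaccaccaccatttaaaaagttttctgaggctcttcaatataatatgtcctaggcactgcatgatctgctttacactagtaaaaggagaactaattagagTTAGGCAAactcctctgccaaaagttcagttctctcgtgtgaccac
Gpr1: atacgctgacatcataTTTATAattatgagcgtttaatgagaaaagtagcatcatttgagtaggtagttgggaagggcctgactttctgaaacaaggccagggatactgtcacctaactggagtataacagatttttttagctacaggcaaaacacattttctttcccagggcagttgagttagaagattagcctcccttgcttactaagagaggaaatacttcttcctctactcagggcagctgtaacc
The Gpr160 promoter held 4 GC boxes and the Ffar4 promoter held 1, a motif found in 32.7% of 32851 promoter windows of the same length. The Ffar2 window held 1 nuclear receptor half-site and 1 C/EBP-type match, and the Adgre4 window held 1 C/EBP-type match. These motifs occurred in 14.0% and 9.56% of all windows. The Gpr1 window held 1 TATA box match, which 12.4% of windows had, near the upstream end of the window. The Gpr39 window held none of the 5 motifs, and no shown window held a CCAAT box, which was in 33.8% of windows. The most downstream pair of GC boxes in Gpr160 overlapped each other. The matches are a description of letters and were not tested for binding.

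Fewer of these receptors were above the threshold than genes in general. A member was taken as above the threshold where 1 of its probe sets was at or above 30 on all 4 arrays of a tissue, which is not a detection call. In WAT this held for 33 of 79 members (41.8%), against 61.1% of all genes. In muscle it held for 26 members (32.9%) against 59.7%, and in liver for 23 members (29.1%) against 58.1%. At or above 100 there were 20 members in WAT, 15 in muscle and 15 in liver. The adhesion receptors were more often above the threshold than the genes named Gpr, with 14 of 21 above in at least 1 tissue against 20 of 56, a difference that was not tested.

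A total of 17 members were above the threshold in all 3 tissues. They were the adhesion receptors Adgra3, Adgre1, Adgre5, Adgrf5, Adgrl1, Adgrl2 and Adgrl4, the short chain fatty acid receptor Ffar2, and Gpr107, Gpr108, Gpr137, Gpr146, Gpr155, Gpr180, Gpr182, Gpr19 and Gpr89. Of the 7 proteins with the Gpr name that were listed as residing on membranes inside the cell, 6 belonged to this shared set, among them Gpr107 and Gpr108 of the Golgi, the Golgi pH regulator Gpr89 and the lysosomal proteins Gpr137 and Gpr155. A further 12 were above the threshold in 2 tissues. Adgrd1, Adgrg1, Adgrg2, Adgrg6, Ffar4, Gpr1, Gpr153, Gpr160 and Gpr162 were above it in WAT and muscle, and Adgra2, Adgre4 and Gpr135 in WAT and liver.

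Only 7 members were above the threshold in 1 tissue. In WAT these were Gpr161, a receptor of the primary cilium, Gpr183, which binds oxysterols, Gpr34, a lysophosphatidylserine receptor of myeloid cells, and Gpr4, a proton-sensing receptor of endothelium. In liver they were Adgrg3, a receptor of granulocytes, the orphan Gpr33 and Gpr39, a zinc-sensing receptor. The remaining 43 members were above the threshold in no tissue. Of these, 19 were at or below 30 on every array by every probe set, namely Adgra1, Adgrb2, Adgrb3, Adgrf1, Gpr101, Gpr149, Gpr15, Gpr151, Gpr165, Gpr17, Gpr171, Gpr173, Gpr179, Gpr22, Gpr25, Gpr50, Gpr6, Gpr62 and Gpr63. The 3 receptors Gpr3, Gpr6 and Gpr12, which raise cyclic AMP without a ligand, and the 3 brain-conserved receptors Gpr27, Gpr85 and Gpr173 were all among the 43.

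The other members below the threshold reached it on some arrays: Adgrb1, Adgrf4, Adgrl3, Gpr12, Gpr132, Gpr143, Gpr152, Gpr158, Gpr174, Gpr176, Gpr18, Gpr20, Gpr26, Gpr27, Gpr3, Gpr35, Gpr37, Gpr45, Gpr61, Gpr65, Gpr75, Gpr83, Gpr84 and Gpr85. Most were near 30. Gpr18 and Gpr65, receptors of lymphocytes and myeloid cells, were at 30 and 55.9 after saline and 41.6 and 53.0 after UAG and at 30 and 63.6 after saline and 46.5 and 30 after UAG in liver. Their highest values came from liver saline replicate 2, and both groups overlapped.

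Many of the receptors bright enough to test differed between tissues, as did many genes in general. Of 37 members tested between tissues, 22 (59.5%) differed between at least 1 pair, where 47.8% of all genes tested did, at a limma adjusted p under 0.05 and a log2 difference of at least 1, each on its brightest probe set. The other members had a mean below 30 over the 12 arrays and were not tested, so these counts do not speak for all 79. A dim member could also pass this filter only through the tissue where it was high. Gpr4, at 30 on all muscle and liver arrays, passed in this way. The shares of members and of all genes were not tested against each other. Between WAT and liver, 13 members were higher in WAT, where 17.8% of all genes tested were, and 6 were higher in liver, where 13.0% were. Between muscle and liver, 6 members were higher in muscle (18.5% of all genes tested) and 9 in liver (15.9%). Between WAT and muscle, 7 were higher in WAT (12.5%) and only Gpr155 was higher in muscle (9.08%). The members higher in WAT than in liver thus made up 13 of 37, and those higher in muscle than in liver 6 of 37.

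**Figure D1:**
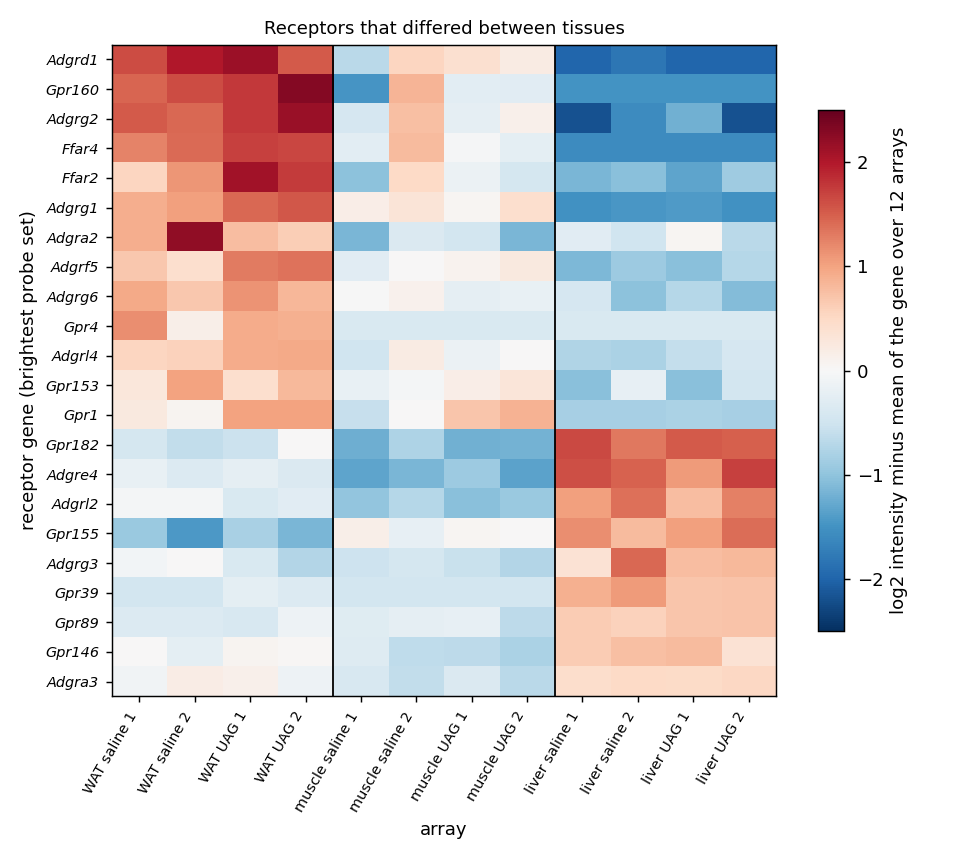
Each row is 1 of the 22 receptors that differed between tissues and each column 1 of the 12 arrays; colour gives the log2 intensity of the brightest probe set minus the mean of that gene over the 12 arrays. The 13 receptors higher in WAT than in liver form the upper block and the 9 higher in liver than in muscle the lower block, with muscle between the other tissues for most WAT receptors.

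Both fatty acid receptors on the array were highest in WAT. Ffar4, the receptor for long chain fatty acids, was at 211 and 239.6 after saline and 294 and 285 after UAG in WAT. In muscle it was at 74.5 and 155 after saline and 88.1 and 75.6 after UAG, and in liver at 30 on all 4 arrays. The WAT arrays lay above every muscle array, and WAT was at least 8.51-fold above liver and muscle at least 3.12-fold above it, taken against the threshold of 30. WAT exceeded muscle by 1.45 ± 0.21 on the log2 scale (SE, 4 arrays a tissue, limma adjusted p = 1.92e-04).

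Ffar2, which binds acetate, propionate and butyrate, was at 332 ± 149.5 in WAT, 105 ± 46.3 in muscle and 55.6 ± 6.68 in liver (SD, n = 4 arrays, both treatments). WAT exceeded liver by 2.47 ± 0.29 log2 (limma adjusted p = 2.64e-05) and muscle by 1.65 ± 0.29 (limma adjusted p = 7.51e-04). These differences average both treatments. After saline it was at 171 and 254 in WAT and 58.4 and 168 in muscle. After UAG it was at 508 and 397 in WAT and 106 and 87.8 in muscle. Muscle and liver differed by 0.82 ± 0.29 log2, under the difference required. Its second probe set was at 30 on all liver arrays.

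Gpr160, an orphan, showed the largest excess of WAT over muscle. It was at 231 and 260.3 after saline and 286 and 416 after UAG in WAT and at 30.5 and 153 after saline and 70.3 and 69.8 after UAG in muscle, and at 30 on all liver arrays. No muscle array reached the lowest WAT array. WAT was at least 9.70-fold above liver against the threshold of 30, and exceeded muscle by 2.07 ± 0.39 log2 (limma adjusted p = 0.00109).

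Among adhesion receptors, Adgrd1 lay at 340.3 to 522 on WAT arrays, 73.7 to 171 on muscle arrays and 30 to 33.8 on liver arrays. It lay above the threshold on 1 liver array only, so WAT was at least 13.5-fold above liver (limma adjusted p = 2.27e-07), and it exceeded muscle by 1.70 ± 0.25 log2 (limma adjusted p = 2.06e-04). The 3 tissues did not overlap on any array. Adgrg2, best known from the male reproductive tract, lay at 369 to 611 on WAT arrays, 102 to 228 on muscle arrays and 30 to 58.8 on liver arrays, and also did not overlap. Its excess of WAT over muscle was 1.66 ± 0.29 log2 (limma adjusted p = 6.37e-04). Adgrg1, a receptor for type III collagen, was at 205 ± 44.1 in WAT, 102 ± 11.6 in muscle and 30.9 ± 1.08 in liver (SD, n = 4). Since its liver arrays were at 30 to 32.2, WAT was at least 6.51-fold and muscle at least 3.28-fold above liver (limma adjusted p = 3.39e-08 and 1.31e-06), and its probe set with the smaller mean followed the same order.

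Receptors known from endothelium did not share 1 pattern. All 5 of that list were above the threshold in WAT, 3 in muscle and 4 in liver. Adgrf5 and Adgrl4 were highest in WAT, where Adgrf5 ranged over 1311 to 2512, against 803 to 1163 in muscle and 454 to 599 in liver. Gpr4 was at 88.3 and 43.3 after saline and 74.4 and 72.3 after UAG in WAT and at 30 on all arrays of muscle and liver, so that WAT was at least 2.25-fold above each other tissue. Adgra2, a co-receptor for Wnt ligands in vessels of the brain, was at 161 ± 97.3 in WAT and 52.7 ± 11.6 in liver (SD, n = 4). Gpr182, which takes up chemokines at lymphatic and sinusoidal endothelium, ran the other way: it ranged over 340.3 to 430.3 in liver, 89.8 to 137 in WAT and 58.7 to 79.8 in muscle. Liver exceeded WAT by 1.90 ± 0.16 log2 (limma adjusted p = 2.21e-06) and muscle by 2.60 ± 0.16 (limma adjusted p = 1.36e-07). The summed intensity of 5 endothelial markers lay at 1675 to 2092 on the WAT arrays, 1224 to 1542 on those of muscle and 954 to 1052 on those of liver.

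**Figure D2:**
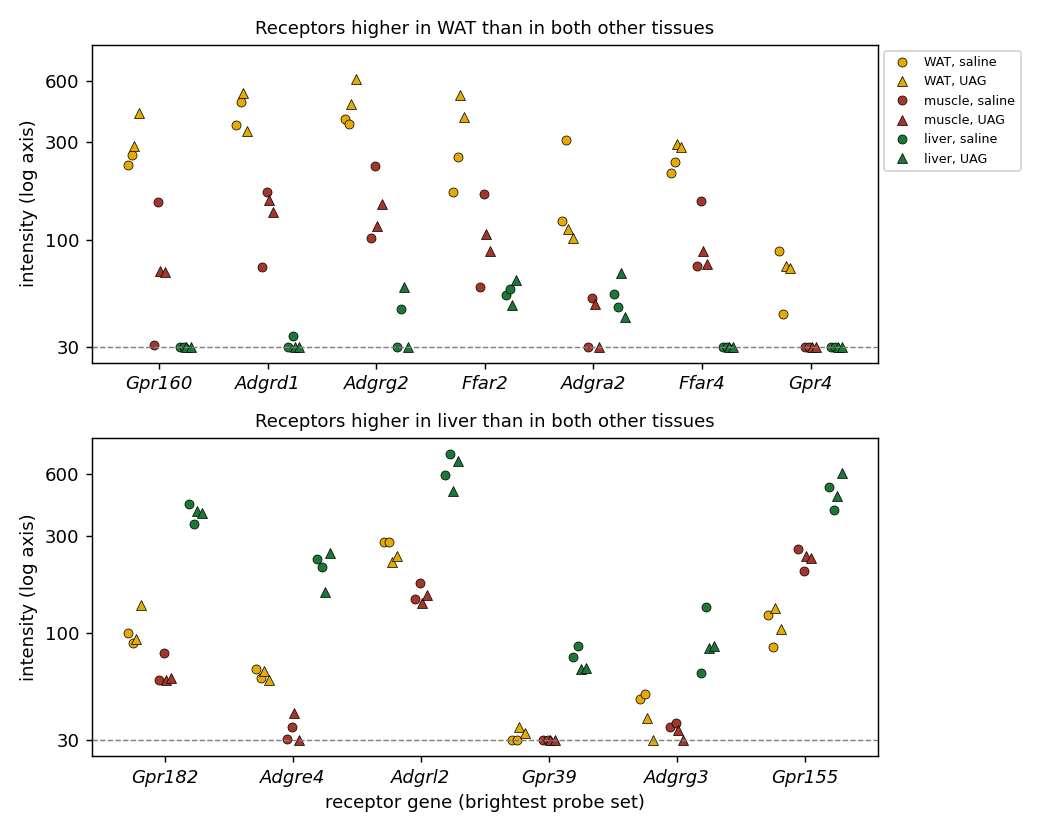
Every array of the 7 receptors higher in WAT (upper panel) and the 6 higher in liver (lower panel) than in both other tissues, as intensity on a log axis; colour gives the tissue, circles saline, triangles UAG, and the dashed line the threshold of 30. Ffar4 and Gpr160 lie on that line on all liver arrays, and Gpr39 on all muscle arrays.

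Of 13 receptors listed for leukocytes, 5 were above the threshold in WAT, 2 in muscle and 4 in liver. Adgre4, a macrophage receptor of the EGF-like module family, ranged over 159 to 248 in liver, 59.0 to 66.7 in WAT and 30 to 40.5 in muscle. Liver exceeded WAT by 1.74 ± 0.18 log2 (limma adjusted p = 9.72e-06), and its second probe set gave the same order. Adgre1, which encodes a widely used macrophage surface marker, ranged over 385 to 506 in WAT and 347 to 463 in liver, which overlapped, and 179 to 247 in muscle. The summed intensity of 5 macrophage markers was 8509 to 8779 in WAT, 3530.1 to 4061 in liver and 2258 to 3885 in muscle, so that Adgre4 and these markers ranked WAT and liver in opposite order. Adgrg3 ranged over 63.7 to 134 in liver and 30 to 50.2 in WAT.

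The other liver receptors were Adgrl2, Gpr39 and Gpr155, and Gpr146, Gpr89 and Adgra3 met the rule for liver against muscle but not for liver against WAT. Adgrl2, a latrophilin that binds teneurins and FLRT proteins, ranged over 498 to 751 in liver, 223 to 281 in WAT and 140.4 to 177 in muscle. Gpr39 was at 76.5 and 86.8 after saline and 66.7 and 67.7 after UAG in liver and at 30 on all muscle arrays, which made liver at least 2.47-fold higher than muscle. Gpr155, a lysosomal cholesterol sensor, was the 1 member in the order liver, muscle, WAT with every step past the rule: 500.2 ± 88.4, 233 ± 23.5 and 112 ± 20.4 (SD, n = 4). Muscle exceeded WAT by 1.07 ± 0.16 log2 (limma adjusted p = 2.94e-04). Gpr146, studied for its effect on plasma cholesterol through the liver, was at 661 ± 88.0 in liver, 416 ± 40.5 in WAT and 281 ± 40.1 in muscle.

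In muscle, most receptors that were higher in WAT had their highest value on the same array. Of the 7 members higher in WAT than in muscle, 6 had their highest muscle value on saline replicate 2, and the other, Gpr4, was at 30 throughout. The lowest muscle value of these 6 was on saline replicate 1. For Adgra2 this was a tie, since saline replicate 1 and UAG replicate 2 were both at 30. The share of all genes with this array order was not counted, so the order is not shown to be particular to these receptors. For example, Gpr160 was at 30.5 and 153 on the 2 saline arrays, and Ffar2 at 58.4 and 168. The summed adipocyte markers were 22478 on saline replicate 1, 33438 on saline replicate 2, and 25594 and 29663 on the UAG arrays. Most of the sum came from Fabp4, at 13399 to 18188, and Adipoq, at 7674 to 11936. Among these markers Lep had another order, at 176 and 172 after saline and 366 and 626 after UAG. The 5 mesothelial and epithelial markers summed to 1707 on saline replicate 2 and 150.0 to 465 on the other muscle arrays. That excess came from the keratins Krt19 and Krt8, at 1015 and 602 on saline replicate 2. The other markers of that list, Msln, Upk3b and Wt1, were at 30 on all muscle arrays. The part of these markers in the muscle levels was not tested. Without muscle saline replicate 2, the members that differed between WAT and muscle numbered 12 instead of 8.

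After UAG, few of the receptors reached a 2-fold difference, and none passed a limma adjusted p of 0.05 in any tissue. By the rule in the methods of the study, a ratio of mean intensities of at least 2 or at most 0.5, Ffar2 and Adgra2 differed in WAT, Gpr1 in muscle and no member in liver. Among all genes 1.91% met this rule in WAT, 0.533% in muscle and 0.770% in liver, so that 2, 1 and 0 of 79 members stand beside a similar background. By limma, 0 members were called among 53 probe sets (37 genes) tested in WAT, 45 (31 genes) in muscle and 46 (33 genes) in liver. Over all probe sets, 0% were called in WAT, 0% in muscle and 0.00397% in liver. The lowest adjusted p of a member was 0.567 in WAT and 1.00 in muscle and in liver.

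In WAT more members lay higher than lower after UAG. At an unadjusted limma p under 0.05, 10 member probe sets of 7 genes were higher (18.9% of those tested, against 4.43% of all probe sets) and 0 were lower (against 2.37%). The 7 genes were Ffar2, Gpr1, Adgrf5, Adgrg1, Adgre5, Adgrg2 and Adgrl4, with a pair of probe sets each for Ffar2, Adgrf5 and Adgrg1. Arrays of the groups did not overlap for 17 higher probe sets (32.1%, against 22.0%) and 6 lower ones (11.3%, against 15.3%). The median log2 difference was 0.10 over member probe sets and 0.01 over all probe sets tested. Probe sets of 1 gene are not independent, and of 13 members with several tested probe sets, 11 had the same sign on all of them.

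Ffar2 gave the largest positive difference of any member in WAT. In WAT it was at 171 and 254 after saline and 508 and 397 after UAG, and both UAG arrays lay above both saline arrays. The means were 212 ± 58.2 and 452 ± 78.7 (SD, n = 2), a ratio of 2.13. The log2 difference was 1.11 ± 0.25 (SE, limma adjusted p = 0.615). The second probe set was at 189 and 258 after saline and 437 and 344 after UAG, again without overlap, with a log2 difference of 0.81 ± 0.22. The ratio fell below 2 with the mean of both probe sets (1.93), without saline replicate 1 (1.78) and without UAG replicate 1 (1.87). In muscle and liver the Ffar2 groups overlapped, with log2 differences of -0.04 ± 0.45 and -0.01 ± 0.32. The difference of the UAG effect between WAT and muscle was 1.14 ± 0.58 log2 and did not pass (limma adjusted p = 1.00). Ffar4, the other fatty acid receptor, lay higher after UAG in WAT without overlap, by 0.37 ± 0.16 log2 (limma adjusted p = 0.753).

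Gpr1, a receptor for the adipokine chemerin, lay higher after UAG in both WAT and muscle. It was at 35.7 and 53.6 after saline and 86.3 and 98.2 after UAG in muscle, a ratio of 2.07, and at 63.0 and 55.9 after saline and 107 and 107 after UAG in WAT. In neither tissue did the groups overlap. The log2 difference was 1.07 ± 0.31 in muscle (limma adjusted p = 1.00) and 0.85 ± 0.20 in WAT (limma adjusted p = 0.644). The muscle ratio was 1.72 without saline replicate 1 and 1.93 without UAG replicate 2, and 1 with a floor of 100, since all its muscle values lay below that. Liver arrays were at 30 to 30.7. Among members, Gpr1 was also the 1 probe set higher at an unadjusted p under 0.05 in muscle.

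Chemerin and its other receptors, outside the naming rule, were set beside Gpr1. In WAT chemerin (Rarres2) was at 1189 and 1349 after saline and 2293 and 1777 after UAG, and its main receptor Cmklr1 at 561 and 553 after saline and 925 and 907 after UAG. Neither overlapped, with log2 differences of 0.67 ± 0.18 (limma adjusted p = 0.644) and 0.72 ± 0.14 (limma adjusted p = 0.566). The non-signalling receptor Ccrl2 overlapped, so that all 3 genes of the list had a positive difference, 2 without overlap, and 0 passed the adjusted test. Among all probe sets tested in WAT, 22.0% lay higher without overlap. In liver, chemerin was at 4299.5 and 4416 after saline and 4031 and 4380.3 after UAG, while Cmklr1 was at 30 on all 4 arrays.

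**Figure D3:**
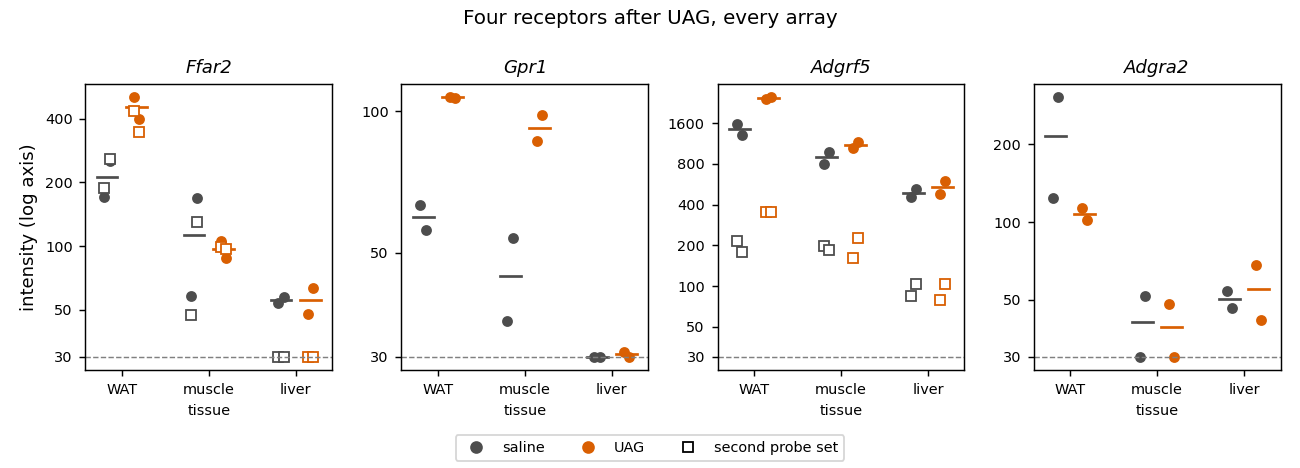
Intensity of Ffar2, Gpr1, Adgrf5 and Adgra2 on every array, on log axes that differ between panels; filled circles are the brightest probe set with a bar at the group mean, open squares a second probe set, grey saline, orange UAG, and the dashed line 30. In WAT the UAG arrays of Ffar2, Gpr1 and Adgrf5 lie above both saline arrays, and 1 saline array of Adgra2 lies at 307.

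The adhesion receptors supplied most of the other WAT differences. Of 23 probe sets of 15 adhesion genes tested in WAT, 7 probe sets of 5 genes were higher at an unadjusted p under 0.05 (30.4%, against the 4.43% of all probe sets given above) and 0 lower. Adgrf5, a receptor of endothelium and lung epithelium, was at 1571 and 1311 after saline and 2418 and 2512 after UAG. Its second probe set was at 217 and 179 after saline and 353 and 354 after UAG, and neither overlapped. The log2 differences were 0.78 ± 0.16 and 0.84 ± 0.17, and both had a limma adjusted p of 0.567. In muscle the brighter probe set was at 803 and 986 after saline and 1041 and 1163 after UAG, without overlap, and the other overlapped.

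Adgrg1 was at 161 and 174 after saline and 233 and 251 after UAG in WAT, higher by 0.53 ± 0.17 log2 (limma adjusted p = 0.685). Adgrg2 was at 391 and 369 after saline and 462 and 611 after UAG, without overlap, while its second probe set overlapped. Adgre5, which encodes CD97 of leukocytes, was at 431 and 518 after saline and 638 and 654 after UAG, and Adgrl4, a receptor of growing vessels, at 474 and 487 after saline and 619.7 and 622 after UAG. Their groups did not overlap, but the second Adgrl4 probe set did. The 5 endothelial markers summed to 2079.6 and 1675 after saline and 2042 and 2092 after UAG, and the 5 macrophage markers to 8509 to 8779. Among the endothelial markers Pecam1 was at 548 and 472 after saline and 483 and 499 after UAG and overlapped. Tek and Emcn overlapped too, while Cdh5, at 252 and 217 after saline and 334 and 314 after UAG, and Kdr, at 286 and 205 after saline and 295 and 307 after UAG, lay higher without overlap. Of the 5 mesothelial and epithelial markers, Msln was at 115 and 158 after saline and 412 and 219 after UAG and Upk3b at 1139.7 and 1237 after saline and 2615 and 1427 after UAG, higher without overlap. In that list Krt8 lay lower without overlap, and Wt1 and Krt19 overlapped. The part of endothelial, macrophage or mesothelial content in the receptor values was not tested.

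Adgra2 alone among members met the rule for a 2-fold lower level after UAG, and this rested on 1 array. It was at 124 and 307 after saline and 113 and 102 after UAG in WAT, so that the UAG arrays lay below both saline arrays and saline replicate 2 far above the rest. The ratio was 0.499, the log2 difference -0.86 ± 0.43 (limma adjusted p = 0.761). Without saline replicate 2 the ratio was 0.870, without UAG replicate 2 it was 0.526, and with geometric means 0.551. Saline replicate 2 is the array with high smooth muscle markers given above, whose part in this value was not tested. The latrophilin Adgrl1 was also highest there, at 137 and 262 after saline and 159 and 149 after UAG, with groups that overlapped. Other members that lay lower in WAT without overlap were Adgrg3, Adgrl2, Gpr180 and Adgre1, with log2 differences of -0.53 ± 0.22, -0.28 ± 0.16, -0.26 ± 0.15 and -0.25 ± 0.16 (SE) and limma adjusted p of 0.751, 0.784, 0.791 and 0.809.

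In muscle, the member probe sets were split evenly. At an unadjusted limma p under 0.05, Gpr1 was higher (1 probe set, 2.22%, against 1.07% of all) and Gpr135 lower (1 probe set, 2.22%, against 0.797%). Groups did not overlap for 4 higher probe sets (8.89%, against 11.4%) and 6 lower ones (13.3%, against 11.3%), and the median log2 difference was -0.03 over members and -0.002 over all. The orphan Gpr135 was at 114 and 116 after saline and 30 and 94.2 after UAG, so that its lower level came mainly from UAG replicate 1, and its log2 difference was -1.12 ± 0.48 (limma adjusted p = 1.00). Gpr153, Adgrf5 and Adgre1 lay higher without overlap by 0.35 ± 0.27, 0.31 ± 0.18 and 0.30 ± 0.22 log2, and Gpr162, Adgrg6, Gpr146 and Adgrg3 lower, at -0.28, -0.26, -0.24 and -0.16, all with a limma adjusted p of 1.00. The 5 macrophage markers also had a positive difference in muscle, with sums of 2258 and 2902 after saline and 2919.6 and 3885 after UAG. Only Csf1r among them lay higher without overlap, and the part of these markers in the Adgre1 values was not tested. Of 11 members with several tested probe sets, 6 had the same sign on all.

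In liver, no member reached 2-fold. At an unadjusted limma p under 0.05 there was 1 higher probe set (2.17%, against 1.94% of all) and 0 lower (against 1.72%). The higher one was a dim probe set of Gpr146, at 30 and 32.1 after saline and 51.7 and 63.3 after UAG, while the brightest probe set of that gene was at 653 and 714 after saline and 737 and 540.0 after UAG and overlapped. Groups did not overlap for 4 higher probe sets (8.70%, against 15.3%) and 4 lower ones (8.70%, against 15.2%). Of the liver receptors, Gpr39 was at 76.5 and 86.8 after saline and 66.7 and 67.7 after UAG and thus lower without overlap, with a log2 difference of -0.28 ± 0.29 (limma adjusted p = 1.00). Gpr83 was at 56.4 and 35.3 after saline and 30 and 30 after UAG, and Gpr174 at 35.0 and 42.1 after saline and 30 and 33.1 after UAG, both dim and lower without overlap, at -0.57 and -0.28 log2. Both UAG arrays of Gpr83 were at the threshold, so its difference is a bound. Gpr3, Adgrl4 and Gpr89 lay higher without overlap, at 0.40, 0.27 and 0.09 log2, with Gpr3 at 31.8 and 30 after saline and 44.2 and 37.6 after UAG. All 5 had a limma adjusted p of 1.00. Of 8 members with several tested probe sets, 3 had the same sign on all.

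**Figure D4:**
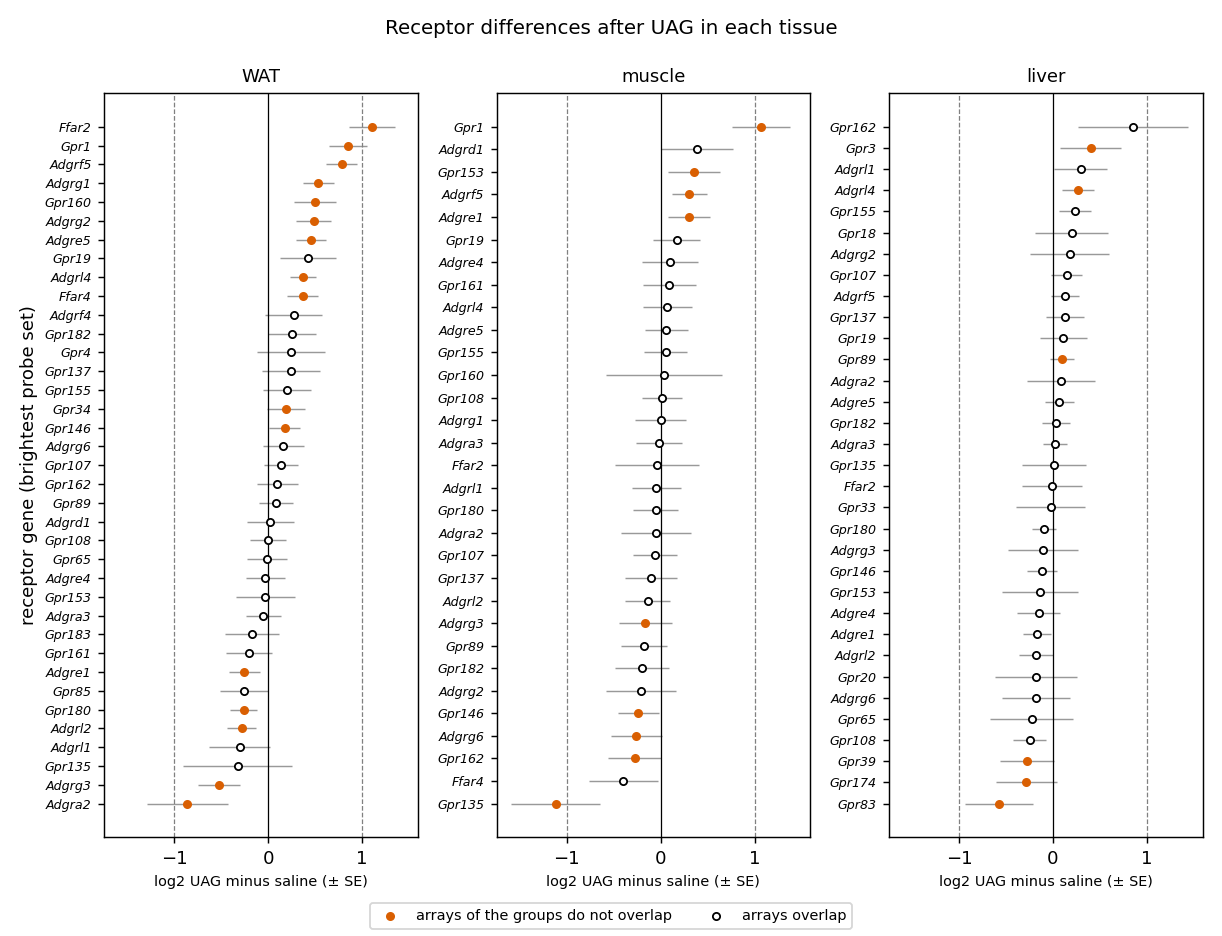
Log2 difference, UAG minus saline, of the brightest probe set of each receptor tested in WAT, muscle and liver, with the limma SE as a bar; filled orange points are receptors whose saline and UAG arrays did not overlap, open points those that did, and dashed lines mark a 2-fold difference. The largest positive differences are Ffar2 and Gpr1 in WAT, at 1.11 and 0.85, and Gpr1 in muscle, at 1.07, and the largest negative ones are Adgra2 in WAT, at -0.86, and Gpr135 in muscle, at -1.12.

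Whether the response to UAG differed from tissue to tissue was tested for every probe set. No member passed: the lowest limma adjusted p was 0.963 between WAT and liver and 1.00 for both other pairs, over 53 member probe sets tested. At an unadjusted p under 0.05 there were 5 member probe sets for WAT against liver (9.43%, against 4.86% of all probe sets), 1 for muscle against liver (1.89%, against 2.81%) and 3 for WAT against muscle (5.66%, against 3.57%). No member passed the adjusted test within WAT either, and the WAT differences were not shown to differ from those in muscle or liver.

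Other genes of receptor signalling were set beside the members. Of 4 metabolite receptors outside the naming rule, 3 were tested in WAT. The succinate receptor Sucnr1 was at 604 and 668 after saline and 1212 and 1126 after UAG, higher without overlap by 0.88 ± 0.15 log2 (limma adjusted p = 0.524), the lactate receptor Hcar1 lay higher without overlap by 0.40 ± 0.18, and Hcar2 overlapped. Of 5 arrestins and receptor kinases tested in WAT, Arrb2 was at 198 and 222 after saline and 323 and 326 after UAG and Arrb1 at 213 and 187 after saline and 305 and 256 after UAG, higher without overlap, and Grk3 at 297 and 146 after saline and 98.8 and 117 after UAG, lower without overlap. Of 11 tested ligands of adhesion receptors, 4 had a positive and 7 a negative difference in WAT. The teneurin Tenm4 lay higher without overlap, by 0.56 ± 0.22 log2, and 2 ligands lay lower without overlap. These were Cd55, at 424 and 480 after saline and 406 and 326 after UAG, and the dim Fndc4. Fndc4 was at 31.1 and 53.4 after saline and at 30 on both UAG arrays. The type III collagen Col3a1, bound by Adgrg1, was at 5536 and 11914 after saline and 7342 and 7056 after UAG and overlapped. None of these lists had a gene past the adjusted test in WAT. Of all probe sets tested in WAT, 22.0% lay higher and 15.3% lower without overlap.

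The probe sets most like each receptor that reached 2-fold were found by the correlation of log2 intensity over the 12 arrays, among 28210 compared. Ffar2 was most like Map4k4 (r = 0.988), Nr4a2 (0.984) and Trp53i13 (0.984). Gpr1 was most like Fam107a (0.981), Glt8d2 (0.958) and Tsc22d1 (0.951), and Adgra2 most like Il4ra (0.971), Vasp (0.964) and Tmem131 (0.963). The 12 points share tissues and treatment groups, so these are descriptions of likeness across tissues.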

How the data were processed

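RNA from gonadal WAT, muscle (vastus lateralis in the study's methods) and liver was hybridised by the submitters to 12 single-channel Affymetrix mouse arrays. MAS5 is given as the tool in the processing notes of the submitters. The study's methods describe quantile normalisation, a threshold of 30 and a 2-fold rule. The deposited values are log2 intensities, 1 per probe set and array; no source gives the base, which was taken as 2, which gives intensities in the usual MAS5 range. They were not normalised again. Raw scanner files and detection calls were not used here. Values were converted to intensity, raised to a floor of 30 and, for tests, returned to log2, so that fold changes of dim probe sets are understated.

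Probe sets were named through the platform annotation, with 64 control probe sets left out: 34945 of 45037 named 1 gene, 932 several and 9160 none. The members and lists were chosen with earlier results of these data known. Tests used limma 3.58.1 in R 4.3.3 (lmFit and eBayes with an intensity trend), with Benjamini-Hochberg adjustment over all probe sets with a mean of at least 30, within each tissue for UAG and over the 12 arrays for tissues. Tissue comparisons and single values used the probe set of each gene with the highest mean over the 12 arrays. The scripts were tested on simulated data. Named were members changed 2-fold or past the limma threshold, the 6 largest differences without overlap in each direction and tissue, up to 8 members highest in each tissue, both fatty acid receptors, and examples from the lists. Members chosen otherwise (Gpr18, Gpr65, Adgrl1 and partner genes among them) were named after their values were seen. The replicate numbers do not pair the samples in the labels. Same-numbered saline and UAG arrays deviated from their group means with a correlation of -0.18 in WAT, 0.18 in muscle and -0.03 in liver. Other floors, ratios, normalisations, filters, probe set rules, array choices and single arrays left out were tried. Promoter windows came from a RefSeq table on GRCm38.p6, which was not used for coordinates of probe sets. Figures were drawn with matplotlib 3.10.9.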

Additional observations from a re-analysis of the deposited data

Results flagged for a closer look

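The UAG effect of 2 receptors ran in opposite directions in 2 tissues on every array, and was therefore set out separately. The share of all probe sets with such a pattern was not counted, so it is not shown to be particular to these receptors. Over all probe sets tested, 22.0% lay higher and 15.3% lower without overlap in WAT, and 11.4% and 11.3% in muscle. Adgre1 lay lower after UAG in WAT, by -0.25 log2, and higher in muscle, by 0.30, a difference between tissues of -0.56 (WAT minus muscle, limma interaction adjusted p = 1.00). The other, Gpr146, lay higher in WAT, by 0.17 log2, and lower in muscle, by -0.24, a difference of 0.41 (limma interaction adjusted p = 1.00). In both cases the saline and UAG arrays did not overlap within either tissue, and neither difference passed the adjusted test. The 5 macrophage markers, whose list does not hold Adgre1, all had a positive difference in muscle (median 0.39 log2). Only Csf1r among them lay higher without overlap, and the others overlapped. The sums of the 5 were 2258 and 2902 after saline and 2920 and 3885 after UAG, which narrowly did not overlap. In WAT 4 of the 5 had a negative difference, and the sums were 8509 and 8540 after saline and 8535 and 8779 after UAG, which overlapped. Their part in the Adgre1 values was not tested. Groups of 2 arrays are too small to test for single arrays that stand apart.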

How the results depend on the processing

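None of the 3 ratios reversed in direction, while counts carry no direction and could not reverse. Over the counts and the 3 ratios, 176 alternative values kept their direction and side of the threshold or lay within 1.5 times the count. Another 18 counts moved further and 9 ratios fell short of 2-fold. The calls after UAG rest on single arrays. Members with a 2-fold difference numbered 2 in WAT, 1 in muscle and 0 in liver, but 13, 21 and 20 without a floor, where values below 30 enter. With geometric means there were 1 in WAT and 2 in muscle, with probe sets averaged within a gene 1 in WAT, and with a floor of 100 there were 0 in muscle. Leaving out 1 array gave counts of 1 to 2 (WAT), 1 to 3 (muscle) and 0 to 2 (liver), with 3 without muscle saline replicate 2 and 2 without liver saline replicate 2. By limma, 0 members were called after UAG in any tissue under every alternative run. With a threshold of 100, 20 members were above it in WAT, 15 in muscle and 15 in liver. With a mean of at least 100 required, 12 members differed between WAT and liver instead of 19, and with the saline arrays only 4 differed between WAT and muscle instead of 8. Leaving out 1 array gave 18 to 20 members between WAT and liver, 12 to 16 between muscle and liver and 7 to 12 between WAT and muscle. With the replicate number as a block, 0 members were called after UAG in each tissue, and across tissues 19, 15 and 8 members differed, as without it. A crossed pairing of the WAT arrays, chosen after seeing the data because same-numbered arrays deviated in opposite directions, also called 0. Scaling each array to its 75th percentile shifted the median by at most 0.0018 log2.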
